A study of Mus musculus with 8 samples.

Results

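Notch receptors, ligands and targets were described in endometrium that was laser-captured from the uteri of Thra1PV/+ and wild-type (WT) female mice. The Thra1PV/+ mice carry the PV mutation, which makes a dominant negative form of thyroid hormone receptor TRα1, in 1 allele of Thra, and the WT mice carry none. All mice were synced at metestrus, and bulk RNA-seq was made from 4 mice of each genotype, whose ages are not given in the sources used here. The captured tissue holds epithelium, stroma and vessels together, so fewer cells of a type and less RNA per cell cannot be told apart in any value below. The 10 members are the receptors Notch1, Notch2, Notch3 and Notch4, the ligands Jag1, Jag2, Dll1 and Dll4, and the target genes Hes1 and Hey1, and they were found by matching gene identifiers to symbols among the 52325 genes of the deposited count table. All 10 passed the filter on low counts, which left 18174 genes. The libraries held 48791602 to 59818887 counts each. The members were taken by gene name and not by a filter on their values, but with earlier results of these data known.

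Notch receptors are membrane proteins that are cut when a ligand of the Jagged or Delta-like family on a neighbouring cell pulls on them. The ADAM proteases and then γ-secretase release the intracellular part, which enters the nucleus, binds the DNA-binding protein RBPJ together with a Mastermind co-activator, and switches on genes of the Hes and Hey families that repress transcription. In stratified epithelium the pathway is known for its part in the step from the basal to the suprabasal layer, in vessels for the choice of tip cells and for the upkeep of mural cells, and in the uterus for its activity in decidualizing stroma.

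Of the 10 members, 2 rose in Thra1PV/+ endometrium and none fell. The receptor Notch3 was 2.50-fold higher and the ligand Jag2 was 4.89-fold higher. A gene was called where edgeR's quasi-likelihood test gave an adjusted p of at most 0.1, over all tested genes, and the level differed at least 2-fold, and 0.924% of all tested genes were called higher. The ligands Dll1, higher, and Dll4, lower, also did not overlap between genotypes, but missed the adjusted threshold. Of all tested genes, 3.55% were higher without overlap and 2.49% lower without overlap. In the rest of the pathway, Nrarp and Dlk2 were called higher. Nrarp is a target gene whose product damps Notch signalling, and Dlk2 encodes a Delta-like membrane protein without the usual receptor-binding domain. The 9 genes of receptor cleavage and the 8 of the nuclear complex had no called gene. As only 180 of the 18174 tested genes were called, the lack of a call in lists this short says little.

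The regions before the start sites of the members and of the called pathway genes were searched for 3 motifs on both strands, and 3 of them are shown as the stretch of DNA next to the transcripts measured. These were the core bound by RBPJ (TGGGAA), the half-site of thyroid hormone receptors (AGGTCA) and the GC box bound by Sp and Klf family factors (GGGCGG). RefSeq entries of build GRCm38.p6 were at hand for 8 of the 10 members and for Nrarp and Dlk2, with the 250 bases before each annotated start. The 250 bases are written 5′ to 3′ on the strand of the gene, and capitals mark the GC box in either orientation. The sequences are those of Notch3 (chr17:32166891-32167140, minus strand) and Nrarp (chr2:25180508-25180757, plus strand), which rose, and of Dll4 (chr2:119325534-119325783, plus strand), the member with the lowest log2 fold change, which was not called. Jag2 and Dlk2 were called too, but their windows lie in part or whole within the annotated gene, and are not printed.
Notch3: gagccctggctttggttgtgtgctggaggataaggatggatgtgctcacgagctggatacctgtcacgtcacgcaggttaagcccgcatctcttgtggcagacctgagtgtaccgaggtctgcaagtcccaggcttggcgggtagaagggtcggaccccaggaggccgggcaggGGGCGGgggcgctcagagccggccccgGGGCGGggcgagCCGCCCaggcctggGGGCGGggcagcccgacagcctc
Nrarp: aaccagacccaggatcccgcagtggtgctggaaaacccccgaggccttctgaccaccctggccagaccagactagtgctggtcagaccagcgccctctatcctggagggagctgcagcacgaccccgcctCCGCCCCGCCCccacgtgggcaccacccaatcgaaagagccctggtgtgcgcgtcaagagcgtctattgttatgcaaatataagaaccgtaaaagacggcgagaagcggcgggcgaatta
Dll4: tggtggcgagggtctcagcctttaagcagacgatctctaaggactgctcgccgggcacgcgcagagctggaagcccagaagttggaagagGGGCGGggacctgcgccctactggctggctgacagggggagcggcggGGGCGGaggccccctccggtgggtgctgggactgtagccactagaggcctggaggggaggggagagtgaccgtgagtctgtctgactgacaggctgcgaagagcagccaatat

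The Notch3 window held 4 GC boxes, and the Nrarp and Dll4 windows held 2 each, those of Nrarp overlapping by 1 base. Of the Dll4 window, 31 bases lie in an exon of Gm14207, a non-coding transcript of the opposite strand. All 250 bases of each Dll1 window lie in exons of A930024N18Rik, also of the opposite strand. None of the 12 windows read for the 10 genes held TGGGAA, which 21.6% of all 32851 windows hold. AGGTCA, held by 14% of all windows, was found once in 1 of the Dll1 windows and once in 1 of the Dlk2 windows. The windows of Notch1, Notch2, Notch4, Jag1 and Jag2, 1 of Dll1 and 1 of Dlk2 overlap exons of the gene itself in GENCODE. GGGCGG was found in windows of Notch1, Notch2, Notch3, Jag2, Dll4, Nrarp and Dlk2, and 32.7% of all windows hold it. A match describes letters only, and the absence of a match covers no more than these 250 bases.

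Levels can be compared between genes only per length, and the deposited TPM were used for this. TPM scale reads by transcript length and library size, and the deposited values also have the form that quantile normalization gives. In WT endometrium Hes1 had the highest level of the members, at 70.7 ± 27.5 TPM (SD, n = 4). Jag1 followed at 13.3 ± 5.45 TPM, and Notch2 at 8.34 ± 1.88 TPM, Hey1 at 7.66 ± 7.18 TPM and Notch1 at 7.49 ± 2.42 TPM came next. Dll4 at 5.82 ± 2.88 TPM and Notch4 at 4.90 ± 2.48 TPM preceded Notch3 at 3.25 ± 0.651 TPM, Jag2 at 2.86 ± 1.07 TPM and Dll1 at 1.18 ± 0.841 TPM. In this order Hes1 stood apart from Jag1, and each of the other neighbours overlapped within 1 SD.

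In Thra1PV/+ endometrium Hes1 was again highest, at 104 ± 14.1 TPM (SD, n = 4), followed by Jag1 at 20.4 ± 3.84 TPM. Jag2 came next at 14.9 ± 3.57 TPM, ahead of Hey1 at 12.5 ± 3.24 TPM and Notch1 at 10.2 ± 1.98 TPM. Notch2 had 9.01 ± 1.13 TPM and Notch3 7.61 ± 1.75 TPM, and the lowest were Dll1 at 3.62 ± 1.05 TPM, Notch4 at 3.45 ± 2.13 TPM and Dll4 at 2.24 ± 0.192 TPM. Hes1 and Jag1, and Notch3 and Dll1, were separated by more than their SDs, and the other neighbours were not. Jag2 thus had rank 9 of the members in WT and rank 3 in Thra1PV/+ endometrium, and Dll4 had rank 6 in WT and rank 10 in Thra1PV/+ endometrium. With CPM (reads scaled to library size after TMM normalization) per kilobase of merged exons in place of the deposited TPM, 2 members in Thra1PV/+ and 5 in WT endometrium held the same rank. On that scale Jag2 had rank 4 in Thra1PV/+ and rank 8 in WT endometrium, and Dll4 had rank 8 in Thra1PV/+ and rank 4 in WT endometrium.

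**Figure D1:**
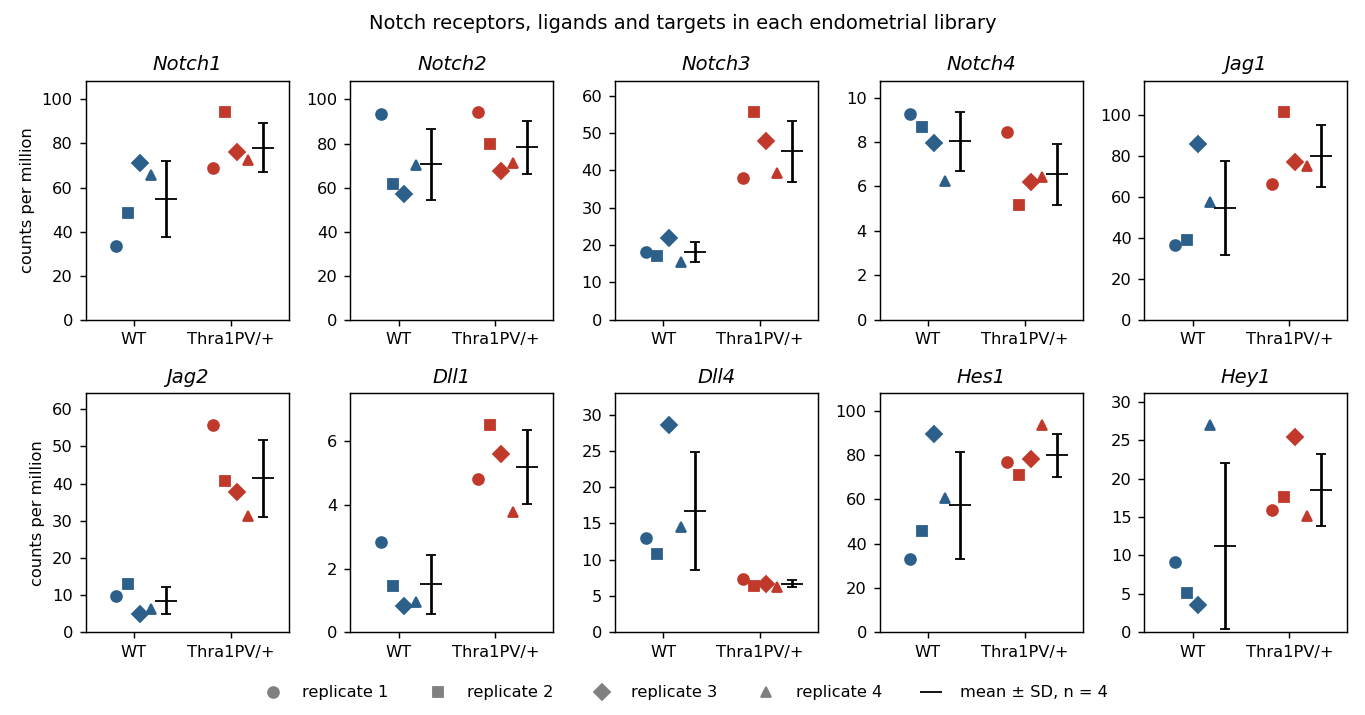
Level of each member in each library, as CPM on a linear axis from 0, with WT in blue, Thra1PV/+ in red, 1 marker shape per replicate number, and black bars for mean ± SD (n = 4). Notch3, Jag2 and Dll1 lie higher in every Thra1PV/+ library than in any WT library, and Dll4 lies lower.

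Among the receptors, Notch3 rose in Thra1PV/+ endometrium. Notch3 (chr17:32120820-32166852, minus strand, GRCm38) encodes the receptor best known from mural cells of vessels, and it is also made in stratified epithelium. Its level was 38.03, 55.6, 47.8 and 39.3 CPM in the 4 Thra1PV/+ libraries and 18.1, 16.99, 21.8 and 15.4 CPM in the 4 WT libraries, from 2071, 2738, 2338 and 2242 and 946, 941, 1095 and 737 counts. The genotypes did not overlap, and the lowest Thra1PV/+ library stood well above the highest WT library. The log2 fold change was 1.32 ± 0.17 (SE; 95% confidence interval 0.92 to 1.72; edgeR quasi-likelihood adjusted p = 0.0181). The exact two-sided permutation test over the 70 arrangements of the libraries gave p = 0.0286, the smallest it can give. Any gene without overlap between genotypes gets this value, the uncalled Dll1 and Dll4 included, so it adds nothing to the non-overlap. The call was held with each library left out, at log2 fold changes of 1.21 to 1.44.

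The other receptors were not called. Notch1 (chr2:26457903-26516663, minus strand), a receptor made in many epithelia, had 69.04, 94.2, 76.2 and 72.7 CPM in Thra1PV/+ and 33.3, 48.6, 71.1 and 65.9 CPM in WT libraries. Only WT replicate 3 reached into the Thra1PV/+ range, and the log2 fold change was 0.51 ± 0.24 (SE; 95% confidence interval -0.04 to 1.06; edgeR adjusted p = 0.554). Notch2 (chr3:98013527-98150361, plus strand) had 94.2, 79.9, 67.6 and 71.1 CPM and 93.5, 61.4, 56.98 and 70.1 CPM, with replicate 1 of each genotype highest and the genotypes overlapping over most of their range. Its log2 fold change of 0.15 has a 95% confidence interval of -0.28 to 0.58, so a change of 2-fold lies outside it in either direction.

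Notch4 (chr17:34564268-34588503, plus strand), an endothelial receptor, had 8.45, 5.15, 6.19 and 6.41 CPM in Thra1PV/+ and 9.27, 8.67, 7.94 and 6.24 CPM in WT libraries. The genotypes overlapped, and the log2 fold change was -0.29 (95% confidence interval -0.83 to 0.25; edgeR adjusted p = 0.754). The deposited TPM of Notch4 were more scattered than its CPM, at 2.81, 3.17, 1.39 and 6.43 TPM in Thra1PV/+ and 2.40, 6.42, 7.55 and 3.21 TPM in WT libraries.

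Notch3 also took a larger share of the receptor family. It made up 21.00% to 29.7% of the summed receptor TPM in Thra1PV/+ libraries and 11.99% to 14.7% in WT libraries, with no overlap. By CPM per kilobase the shares were 24.3% to 32.3% and 13.8% to 19.3%, again with no overlap. The shares of Notch1 overlapped, at 30.4% to 36.5% and 20.6% to 37.7% of the summed TPM, as did those of Notch2, at 26.6% to 38.2% and 24.6% to 53.03%. Those of Notch4 overlapped by TPM, at 5.12% to 20.4% and 11.6% to 27.5%, but by CPM per kilobase they lay lower in Thra1PV/+ libraries with no overlap, at 2.97% to 5.42% and 5.60% to 8.75%. The receptors summed to 26.9 to 35.4 TPM in Thra1PV/+ and 20.8 to 28.6 TPM in WT libraries, and these ranges overlapped.

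Among the ligands, Jag2 rose, and it showed the largest log2 fold change of the 10 members. Jag2 (chr12:112907819-112929776, minus strand) encodes a Jagged ligand that basal cells of stratified epithelium are known to make. Its level was 55.9, 40.5, 37.8 and 31.3 CPM in Thra1PV/+ libraries and 9.65, 13.1, 4.99 and 6.13 CPM in WT libraries, from 3043, 1998, 1850 and 1789 and 506, 724, 251 and 293 counts. The lowest Thra1PV/+ library was far above the highest WT library, and WT replicates 3 and 4 were the lowest of all. The log2 fold change was 2.29 ± 0.34 (SE; 95% confidence interval 1.52 to 3.06; edgeR adjusted p = 0.0268), and the exact permutation test gave p = 0.0286. The call was held with each library left out, at 2.12 to 2.61 on the log2 scale.

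Dll1 (chr17:15367354-15376872, minus strand), a Delta-like ligand of epithelial and progenitor cells, was low in both genotypes. It had 4.83, 6.53, 5.62 and 3.78 CPM in Thra1PV/+ libraries and 2.82, 1.44, 0.816 and 0.942 CPM in WT libraries, from 263, 322, 275 and 216 and 148, 80, 41 and 45 counts. The genotypes did not overlap, and WT replicate 1 lay closest to the Thra1PV/+ libraries. The log2 fold change was 1.78 ± 0.44 (SE; 95% confidence interval 0.77 to 2.80), with an unadjusted p of 0.00356 and an adjusted p of 0.194 in edgeR's quasi-likelihood test, so Dll1 was not called. Without WT replicate 1 the log2 fold change was 2.33 (adjusted p = 0.0425), which passes the threshold, and leaving out each other library in turn gave no call.

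Dll4 (chr2:119325784-119335962, plus strand), the Delta-like ligand of arterial and sprouting endothelium, was the member with the lowest fold change. It had 7.34, 6.39, 6.64 and 6.29 CPM in Thra1PV/+ libraries and 12.9, 10.8, 28.6 and 14.6 CPM in WT libraries, from 400, 315, 325 and 359 and 678, 597, 1440 and 696 counts. The Thra1PV/+ libraries were nearly alike, and the WT libraries all lay above them, with WT replicate 3 highest. The log2 fold change was -1.33 ± 0.32 (SE; 95% confidence interval -2.05 to -0.61), with an unadjusted p of 0.00269 and an adjusted p of 0.171 in edgeR's quasi-likelihood test, so Dll4 was not called. Without WT replicate 3 it was -0.92 (adjusted p = 0.138).

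Gm14207, a non-coding transcript on the opposite strand, overlaps the start of Dll4. It had 0.826, 0.974, 1.12 and 1.28 CPM in Thra1PV/+ libraries and 1.72, 4.21, 7.16 and 2.37 CPM in WT libraries (log2 fold change -1.88 ± 0.48, SE; edgeR adjusted p = 0.206), and was looked up after the values of Dll4 were seen. The study's methods name a stranded library kit, but whether strand was used in counting is not given in the sources used here, so reads of this pair where they overlap cannot be assigned with certainty. Transcripts of the opposite strand also overlap Notch1 (0610009E02Rik, 32 to 83 counts), Notch3 (Gm17276, 0 to 9 counts) and Dll1 (A930024N18Rik, 7 to 34 counts), and the same limit holds there.

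Jag1 (chr2:137081456-137116644, minus strand), the ligand with the highest mean TPM in both genotypes, was not called. It had 66.5, 102, 77.3 and 75.4 CPM in Thra1PV/+ and 36.4, 39.04, 86.2 and 57.9 CPM in WT libraries. WT replicates 1 and 2 were low and WT replicate 3 lay within the Thra1PV/+ range, and the log2 fold change was 0.55 ± 0.29 (SE; 95% confidence interval -0.11 to 1.20; edgeR adjusted p = 0.599).

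Within the ligand family the share of Jag2 was larger and that of Dll4 smaller in Thra1PV/+ endometrium. Jag2 made up 30.9% to 47.4% of the summed ligand TPM in Thra1PV/+ libraries and 5.70% to 22.6% in WT libraries. For Dll4 the shares were 4.92% to 6.03% and 19.4% to 30.3%. Neither pair of ranges overlapped, and by CPM per kilobase they did not overlap either, at 21.99% to 35.7% and 3.10% to 16.02% for Jag2 and 6.27% to 8.48% and 23.9% to 32.1% for Dll4. Jag1 kept the largest ligand share in all libraries except Thra1PV/+ replicate 1 on the TPM scale, where Jag2 exceeded it. The TPM of Dll4 over that of Dll1 was 0.525 to 0.799 in Thra1PV/+ libraries and 1.87 to 14.6 in WT libraries, so Dll4 exceeded Dll1 in every WT library and lay below it in every Thra1PV/+ library on this scale. By CPM per kilobase Dll4 exceeded Dll1 in all 8 libraries. The ligands summed to 35.7 to 47.7 TPM in Thra1PV/+ and 18.2 to 33.1 TPM in WT libraries. These shares follow from the levels above and are given as a description, with no test.

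**Figure D2:**
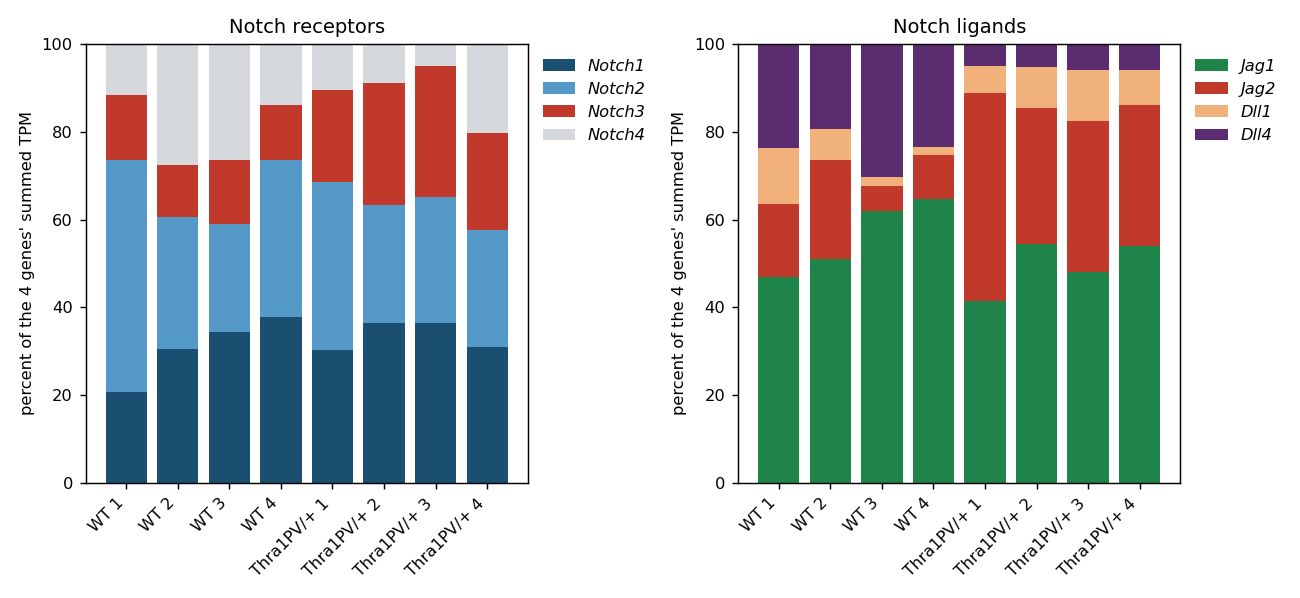
Share of each gene in the summed TPM of the 4 receptors (left) and of the 4 ligands (right), in percent, with 1 stacked bar per library. The Jag2 part is wider in all Thra1PV/+ bars and the Dll4 part is narrower (4.92% to 6.03% against 19.4% to 30.3% in WT), while Notch3 takes more of the receptor bars.

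The target genes Hes1 and Hey1, both of which encode basic helix-loop-helix repressors, were not called. Hes1 (chr16:30064384-30067796, plus strand) had 76.8, 71.2, 78.03 and 93.8 CPM in Thra1PV/+ and 33.2, 45.6, 89.4 and 60.7 CPM in WT libraries, where replicate 3 lay within the Thra1PV/+ range and the rest below it. Its log2 fold change was 0.48 ± 0.28 (SE; 95% confidence interval -0.17 to 1.13; edgeR adjusted p = 0.643). Hey1 (chr3:8663359-8667256, minus strand) had 15.9, 17.6, 25.4 and 15.1 CPM in Thra1PV/+ and 9.16, 5.15, 3.60 and 27.04 CPM in WT libraries. WT replicate 4 exceeded every other library, whereas the other WT libraries lay below every Thra1PV/+ library. The log2 fold change of Hey1 was 0.72 ± 0.59 (SE; 95% confidence interval -0.64 to 2.08; edgeR adjusted p = 0.762), and without WT replicate 4 it was 1.63 (adjusted p = 0.207).

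Counted together, 8 of the 10 members had a positive log2 fold change, beside 7843 of all 18174 tested genes. The median of the 10 members was 0.53, beside -0.05 over all tested genes. At an unadjusted p under 0.05 there were 4 members, Notch3, Jag2, Dll1 and Dll4, beside 9.77% of all tested genes. The genotypes did not overlap for 3 members that were higher and 1 that was lower, beside 3.55% and 2.49% of all tested genes. DESeq2 called all 4 of these members, beside 2.64% of the genes it tested, with adjusted p-values of 0.00256 for Dll1 and 0.00905 for Dll4, and limma voom with sample quality weights called the same 4, beside 1.71% of the genes it tested. Thra, the mutated gene, had a log2 fold change of 0.04 ± 0.39 (SE; edgeR adjusted p = 0.987), which does not check the labels, since gene counts pool the transcripts of the mutated and the normal allele.

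The rest of the pathway was followed in 50 further genes, of which 44 passed the filter. Of these 44, 2 were called higher, beside 0.924% of all tested genes, and none lower, and the median log2 fold change was -0.02. At an unadjusted p under 0.05 in edgeR there were 4, all higher, beside 9.77% of all tested genes. Nrarp (chr2:25180758-25183339, plus strand) encodes an ankyrin-repeat protein that is induced by Notch and destabilizes its intracellular domain. It had 21.6, 19.97, 20.8 and 18.4 CPM in Thra1PV/+ libraries and 8.20, 7.53, 3.72 and 4.37 CPM in WT libraries. The Thra1PV/+ libraries lay close together, and all were far above the WT libraries (log2 fold change 1.76 ± 0.28, SE; edgeR adjusted p = 0.0371; exact permutation p = 0.0286). The adjusted p was 0.106 without Thra1PV/+ replicate 2, 0.135 without Thra1PV/+ replicate 3 and 0.114 without WT replicate 4, so the call was lost without any 1 of these.

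Dlk2 (chr17:46297421-46303271, plus strand), the only 1 of the 4 further ligands that passed the filter, had 2.86, 1.68, 1.82 and 1.31 CPM in Thra1PV/+ and 0.248, 0.144, 0.0995 and 0.0209 CPM in WT libraries. These came from 156, 83, 89 and 75 counts and 13, 8, 5 and 1 counts, so the WT levels rest on few reads. The log2 fold change was 3.87 ± 0.64 (SE; 95% confidence interval 2.40 to 5.34; edgeR adjusted p = 0.0404; exact permutation p = 0.0286). The adjusted p was above 0.1 without Thra1PV/+ replicate 2 (0.105), Thra1PV/+ replicate 3 (0.135), WT replicate 2 (0.114) or WT replicate 3 (0.122). Dlk1, chosen after its values were seen because DESeq2 called it, was under the filter, with 75, 3, 18 and 57 counts in Thra1PV/+ and 0, 1, 5 and 0 counts in WT libraries. Dll3, Dner, Hes2, Hes3 and Hes5 were under the filter as well.

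The enzymes that add sugars to Notch were not called in any of the 5 tested (median log2 fold change 0.02). Lfng, the Fringe enzyme that shifts the receptors' preference between ligands, had 22.7, 16.3, 21.8 and 24.4 CPM in Thra1PV/+ and 15.6, 16.2, 6.94 and 14.5 CPM in WT libraries. The genotypes did not overlap, by a narrow margin, and the log2 fold change was 0.68 ± 0.28 (SE; edgeR adjusted p = 0.485). Poglut1, an O-glucosyltransferase, had a log2 fold change of -0.23 ± 0.18 (edgeR adjusted p = 0.746).

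None of the 9 genes of receptor cleavage examined was called, beside 180 of all 18174 tested genes. Their log2 fold changes lay between -0.28 and 0.37, with a median of 0.06. The smallest p-values among these 9 were those of Psen2 and Aph1b, both of which encode subunits of γ-secretase. Psen2 had a log2 fold change of -0.28 ± 0.23 (edgeR adjusted p = 0.754) and Aph1b one of 0.33 ± 0.30 (adjusted p = 0.788). The 8 genes of the nuclear complex lay between -0.40 and 0.18, with a median of -0.14 and none called. There the smallest p-values belonged to the acetyltransferase gene Kat2b, at -0.40 ± 0.22 (adjusted p = 0.631), and to the co-activator gene Snw1, at -0.19 ± 0.15 (adjusted p = 0.754).

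Endocytosis and turnover of ligands and receptors was represented by 13 genes, again with none called and a median log2 fold change of -0.28. Neurl1b, a ubiquitin ligase that acts on ligands, had 11.8, 5.90, 6.15 and 6.86 CPM in Thra1PV/+ and 52.4, 8.88, 11.98 and 9.08 CPM in WT libraries. WT replicate 1 stood far above all others, and the log2 fold change of -1.42 ± 0.62 (edgeR adjusted p = 0.515) became -0.34 without it. Dtx2, a Deltex ubiquitin ligase, had a log2 fold change of 0.35 ± 0.16 (adjusted p = 0.546). Of the 8 tested genes among the other Hes, Hey and target genes, Nrarp was the 1 called, and the median was 0.19. At an unadjusted p under 0.05 in edgeR, 1 gene of the sugar-adding enzymes and 0 genes of cleavage, the nuclear complex and turnover were found. The share over all tested genes was 9.77%. DESeq2 and limma voom called 0 genes in these 4 lists, beside 2.64% and 1.71% of the genes they tested.

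**Figure D3:**
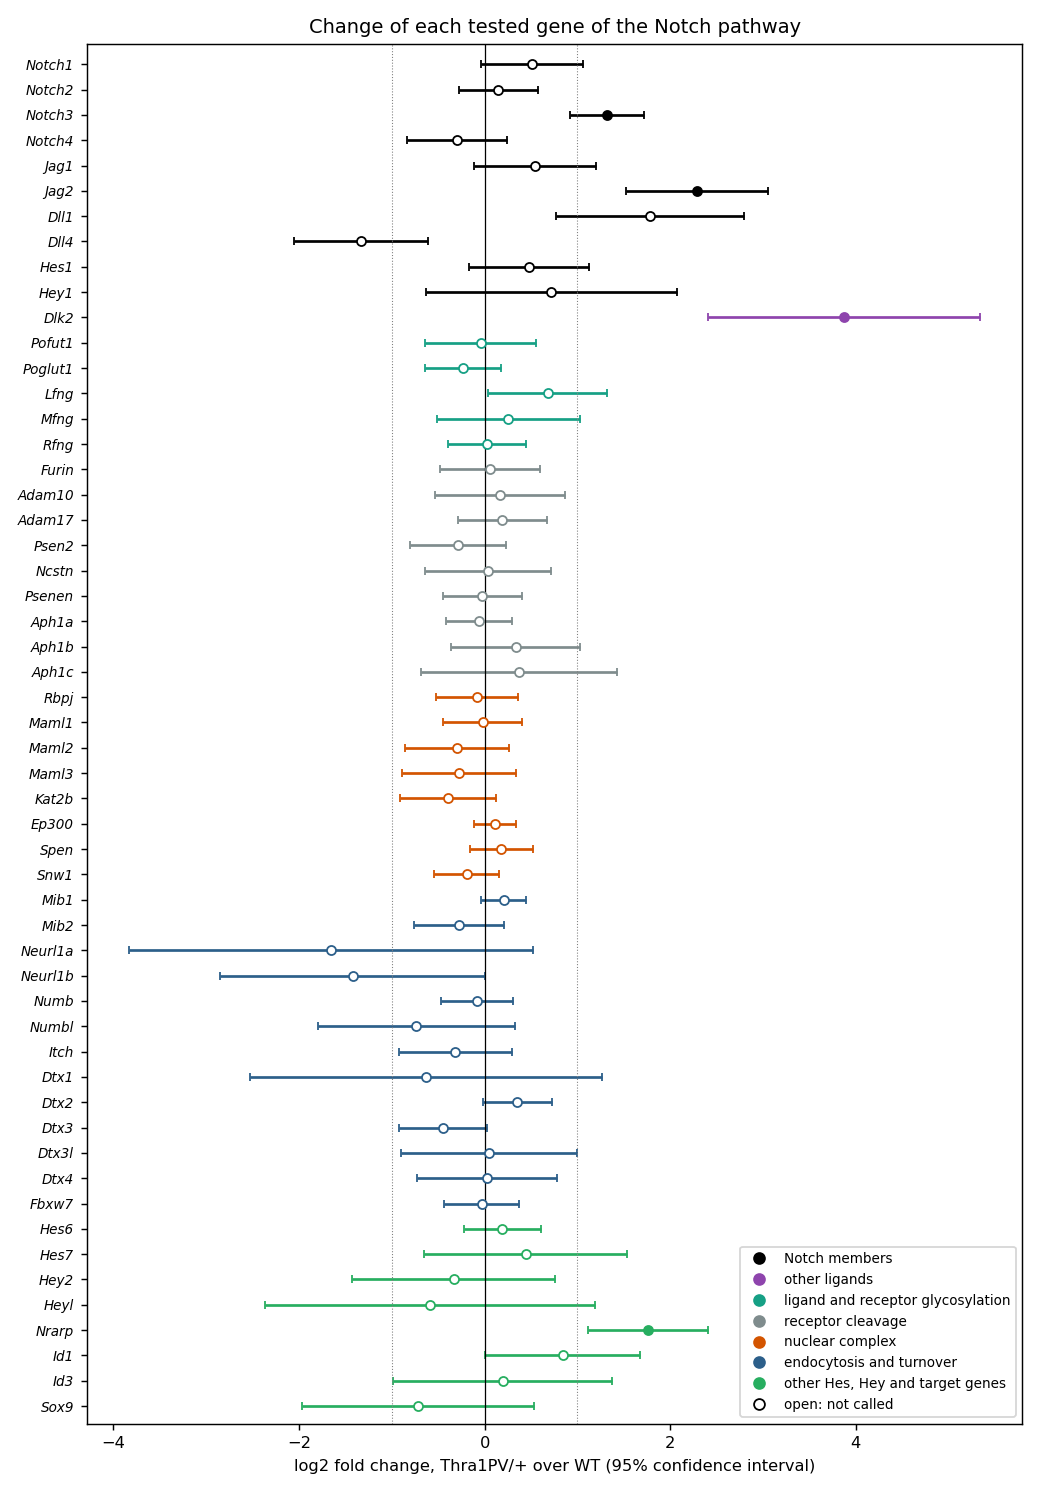
Log2 fold change of Thra1PV/+ over WT endometrium for the 10 members (black) and the 44 other tested pathway genes (coloured by list), with 95% confidence intervals from edgeR's quasi-likelihood fit, filled points for called genes and dotted lines at a 2-fold change. The filled points are Notch3, Jag2, Dlk2 and Nrarp, all above 1, and the interval of Dll4 (-2.05 to -0.61) lies below 0.

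Likeness was measured as the root mean square difference of log2 CPM, centred on each gene's mean, over the 8 libraries, among 12126 other genes whose log2 CPM averaged 2 or more. The genes most like Notch3 were AI854703 (0.15), Cast (0.17), Gpt (0.24), Palmd (0.24) and Ephb6 (0.24). Those most like Jag2 were Gata3 (0.20), Engase (0.33), Nrarp (0.34), Acsl1 (0.34) and Ptprz1 (0.35), so that Nrarp was among them. Closeness to a called gene fixes the direction, so the values are a description.

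Across libraries of the same genotype the members did not vary as 1 group. In WT endometrium Jag2, Dll1 and Nrarp were lower in replicates 3 and 4 than in replicates 1 and 2, whereas Notch1, Jag1, Hes1 and Dll4 were higher in replicates 3 and 4. In Thra1PV/+ endometrium Notch3, Jag1 and Notch1 were highest in replicate 2, and Jag2 and Dlk2 in replicate 1.

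**Figure D4:**
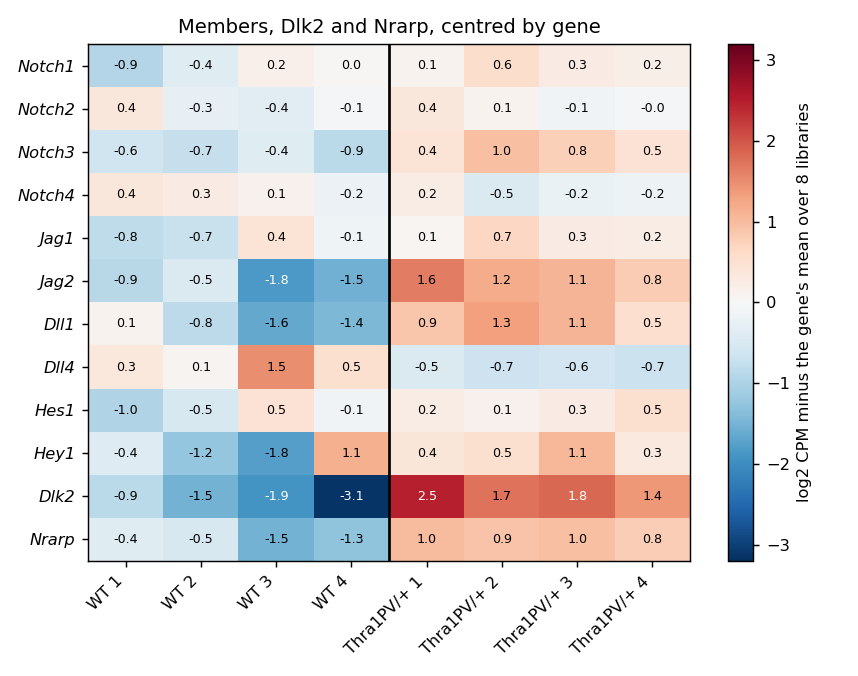
Log2 CPM of the 10 members, Dlk2 and Nrarp in each library minus the gene's mean over the 8 libraries, printed in each cell and coloured from blue (below the mean) to red (above), with WT on the left of the line. Jag2, Dlk2, Nrarp and Notch3 are below their mean in all WT libraries and above it in all Thra1PV/+ libraries, while Dll4 shows the reverse.

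Markers of other cell types differed between libraries, and are given here because some moved with the members. Squamous epithelium markers rose with Jag2 and Notch3. Of 7 basal markers 5 were called higher, with Trp63 and Col17a1 among them, and their summed level was 2544 to 3987 CPM in Thra1PV/+ against 125 to 213 CPM in WT libraries. Of 10 suprabasal markers 8 were tested and 3 called higher, Ivl and Grhl3 among them, and the sums of the list were 639 to 1101 and 19.7 to 50.4 CPM. Krt13, also called, made up most of the Thra1PV/+ sums, at 594, 895, 642 and 628 CPM, so those sums chiefly follow this gene. Dsc1 was at 0 in every library. Dsg1a was at 0 in all WT libraries, and had 0, 5, 3 and 1 counts in the Thra1PV/+ libraries, and neither gene was tested. Ivl had no count in WT replicate 2 and Krt14 none in WT replicate 1. Within the Thra1PV/+ libraries Jag2 was highest in replicate 1, where the basal sum was lowest (2544 CPM). The part of these cells in the changes of Jag2 and Notch3 was not tested.

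Markers of the vessels were not called in either direction. Of 12 endothelial markers none was called, with none at an unadjusted p under 0.05 and none called by DESeq2 or limma voom, and the median log2 fold change was -0.27, and the summed level was 144 to 372 CPM in Thra1PV/+ and 204 to 449 CPM in WT libraries. Relative to that sum, Dll4 was 1.98 to 4.45% in Thra1PV/+ and 2.88 to 14.1% in WT libraries, and the genotypes overlapped on this scale. Of 7 pericyte and vascular smooth muscle markers none was called by any of these tools. In edgeR 2 were lower at an unadjusted p under 0.05, and all had negative log2 fold changes, from -4.60 to -0.08 (median -1.25). Their sums were 148 to 512 CPM in Thra1PV/+ libraries. In WT replicates 1, 2, 3 and 4 the sums were 6491, 641, 396 and 700 CPM, so the top of the WT range rests on replicate 1. Myh11, also a smooth muscle marker, had the smallest p of the 7 markers, at a log2 fold change of -4.60 (edgeR adjusted p = 0.344). The part of these cells in the change of Notch3 was not tested.

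Some libraries stood apart. WT replicate 1 had a smooth muscle sum of 13143 CPM beside 146 to 1146 CPM in the other 7, and Myh11 was at 1752 CPM in it. The stroma sum was 5206, 4694 and 5036 CPM in Thra1PV/+ replicate 1 and WT replicates 1 and 2, and at most 1774 CPM in the other 5. None of the 8 smooth muscle markers was called by edgeR, DESeq2 or limma voom, but all 8 were lower at an unadjusted p under 0.05 in edgeR (median log2 fold change -3.96). None of the 8 stroma markers was called by edgeR or limma voom, 1 was called lower by DESeq2, and their median was -0.83. Simple epithelium markers overlapped, at 2152 to 5298 and 2188 to 5597 CPM, with none of 8 called and none at an unadjusted p under 0.05. Of 6 ciliated cell markers 5 were tested and 1, Foxj1, was called lower, while 2 had positive log2 fold changes, of which Ccno was at 0.95 (edgeR unadjusted p = 0.0482, adjusted p = 0.507). Their sums were 16.4 to 19.8 and 22.5 to 49.6 CPM with no overlap, and Dnah5 was at 0 in WT replicate 3. Leukocyte markers, with none of 7 called by edgeR, 3 higher at an unadjusted p under 0.05 and 1 called higher by DESeq2, summed to 229 to 445 and 99.7 to 263 CPM.

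The members were therefore refitted without those libraries. Without WT replicate 1 the log2 fold change was 1.37 for Notch3 (adjusted p = 0.0403), 2.41 for Jag2 (adjusted p = 0.0488) and -1.39 for Dll4 (adjusted p = 0.198). Without the 3 stroma-rich libraries, a choice made after seeing the data, it was 1.39 for Notch3 (adjusted p = 0.0947) and 2.76 for Jag2 (adjusted p = 0.0138), so both were called. Dll1 was then called too, at 2.63 (adjusted p = 0.0635), and Dll4 was at -1.70 (adjusted p = 0.109). The remaining members were not called in that refit, at 0.28 for Notch1, 0.24 for Notch2, -0.22 for Notch4, 0.28 for Jag1, 0.15 for Hes1 and 0.37 for Hey1. Only Thra1PV/+ replicates 2, 3 and 4 and WT replicates 3 and 4 entered it.

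**Figure D5:**
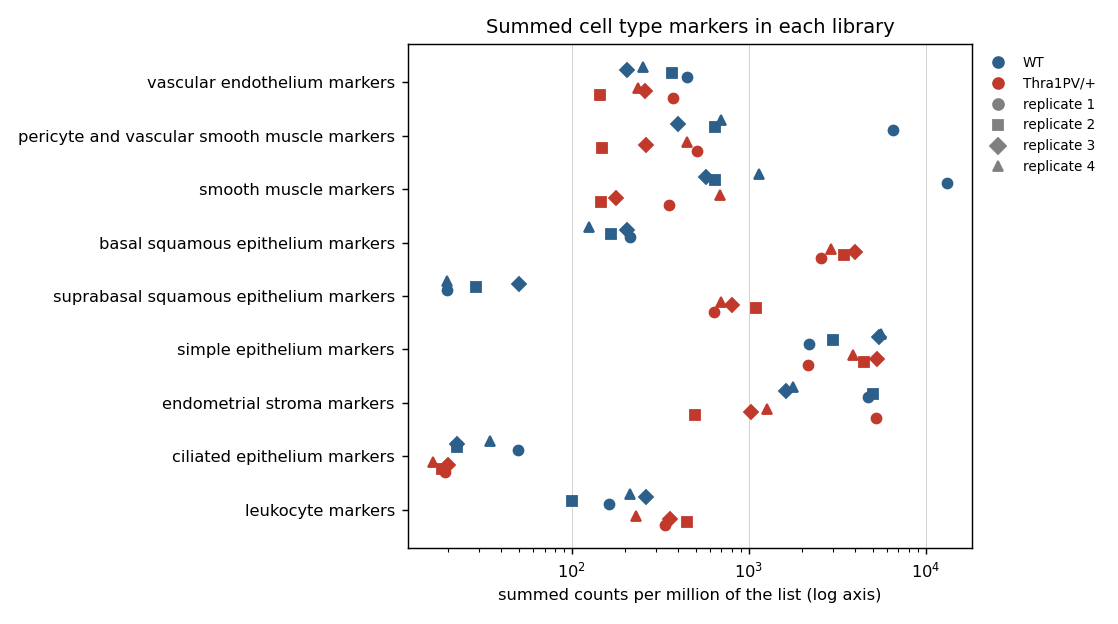
Summed CPM of each list of cell type markers in each library, on a log axis, with WT in blue, Thra1PV/+ in red and 1 marker shape per replicate number. The squamous lists separate the genotypes, WT replicate 1 stands apart for smooth muscle, and the endothelial sums of both genotypes overlap.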

How the data were processed

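Frozen sections of uterus from 4 WT and 4 Thra1PV/+ mice were used for laser capture of endometrium, and mRNA libraries were sequenced as read pairs. The authors trimmed reads with Trimmomatic and quantified them with Salmon on mm10 (versions and annotation release are not given in the sources used here), and deposited gene-level estimated counts that were not normalized, together with TPM. Sorted TPM values differed between libraries by at most 0.290 at any rank, the form that quantile normalization gives, and this step carries over to every TPM level and share. A further TPM column (1), with negative values and division errors, was not used.

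The counts were rounded and summed to 48791602 to 59818887 per library, and identifiers without a symbol held at most 0.00896% of them. Genes passing filterByExpr (minimum count 10, minimum total 15) entered edgeR 4.0.16 (TMM, quasi-likelihood test, genotype only, R 4.3.3), with Benjamini-Hochberg adjustment over all 18174 tested genes. The SE was the log2 fold change over the square root of F, and its 95% interval from the t distribution with the fit's degrees of freedom. Log2 CPM used a prior count of 2. DESeq2 1.42.0 and limma 3.58.1 were alternatives, with log2 TPM at a pseudocount of 1 or 0.1, other normalizations, filters and thresholds, replicate number as a block, and each library left out. The tests were first run on simulated counts. Positions and exon lengths are from GENCODE M21 (GRCm38), and promoter windows from RefSeq.

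All members were named. From each other pathway list the called genes were named, or else the 2 with the smallest p. Of marker lists at most 2 genes with small p were named, besides markers at 0 and Krt13, named for its part in the suprabasal sum. A pathway gene is not reported here, and the list counts leave it out. The 5 genes most like each of the 2 members with the smallest p were also named. The members, lists and tests were chosen with earlier results of these data known.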

Additional observations from a re-analysis of the deposited data

How the results depend on the processing

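Jag2 was called under all 20 alternative fits and Notch3 under 19 of 20, the exception being limma on TPM with a pseudocount of 1 (adjusted p = 0.101). The number of members called, 2, was 4 by DESeq2, 4 by limma voom with sample quality weights, 1 by limma on TPM with a pseudocount of 1, 4 at an unadjusted p under 0.05, and 2 to 3 with 1 library left out. Over all genes the 180 calls became 81 with at least 10 counts in every library, 793 by DESeq2, 311 by limma voom, 119 at an adjusted p of 0.05 or less with a fold of 2, 1775 at an unadjusted p under 0.05, and 81 to 167 with 1 library left out (fewest without Thra1PV/+ replicate 3, and 116 without Thra1PV/+ replicate 2 and 114 without WT replicate 4). The 2 calls in the rest of the pathway became 1 with at least 10 counts in every library, 4 at an unadjusted p under 0.05, and 0 to 2 with 1 library left out, with none left without Thra1PV/+ replicate 2 or 3. Dlk2 could not be tested with at least 10 counts in every library. The replicate block gave 82 calls over all genes, 2 among the members and 1 in the rest of the pathway, where Nrarp missed the threshold (adjusted p = 0.107). Same-numbered libraries correlated in their deviations from the group means at -0.44 to 0.34, and 1 of 4 correlated best with its own number, so the numbers were not taken to pair the mice. Psen2 changed sign without the 3 stroma-rich libraries (0.0930 on the log2 scale), and Thra ranged from -0.23 to 0.29 with 1 library left out, without being called. The remaining 448 combinations of a result and a setting kept direction and side of the threshold, or a count within 1.5 times. The cause of these differences was not tested. With 4 mice a genotype, the adjusted p of Dll1 and Dll4 depended on the tool, and Dll1 rests on only 41 to 322 counts a library.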
